A study of Mus musculus with 6 samples.

Results

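The sarcomere and calcium handling genes are 38 genes fixed by name, out of 32285 genes counted, which encode the filaments, anchors and calcium pumps of striated muscle. They comprise 11 thin filament genes, 9 thick filament genes, 13 genes of titin, the M-band, the Z-disc and filament anchors, and 5 calcium handling genes. Single-cell RNA was counted in the microdissected cardiogenic region of wild type C57BL/6 mouse embryos at E10.5. The dams had received vehicle and had normal blood glucose (3 samples), or streptozotocin, a toxin of pancreatic beta cells, and were hyperglycaemic (3 samples), and the sires had normal glucose in both groups. The deposited counts sit in 1 matrix of 53362 cell barcodes whose suffix separates 6 libraries, and no file used here says which library belongs to which sample. The comparison of the treatments was therefore not made, the matrix was treated as 1 sample, and libraries 1 to 6 are described one by one without a group. Libraries without a label were not taken as replicates and no test was made, so no p-value is given. Classes are instead set side by side within each library.

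Of the barcodes, 35962 had at least 2500 detected genes and at most 10% mitochondrial counts, and these are the cells described. A UMI (unique molecular identifier) marks 1 captured RNA molecule. Median UMIs per kept cell ranged from 30533 to 35634 over the libraries. Cells were assigned to classes by marker genes that are not among the 38. A cardiomyocyte had to show a UMI of at least 10 of 12 heart muscle markers, such as Nkx2-5, Smyd1 and Popdc2, and was then placed by which of 3 short lists it matched best. This gave 1095 ventricular cells (Irx4, Hey2, Cited1, Mpped2), 1234 atrial cells (Nr2f1, Nr2f2, Stard10, Angpt1, Kcnj3), 535 outflow cells (Sema3c, Isl1, Tdgf1, Bmp4, Wnt11, Abra) and 86 cells of no subtype, or 2950 cardiomyocytes in all. The 862 branchiomeric muscle cells, named after the progenitors of the head and pharyngeal muscles, showed at least 4 of 10 markers with Myf5, Myod1 or Msc among them. A further 17234 cells of 13 other classes, from erythroid cells to epicardium, served to measure the background. Median depth was 56464 UMIs in ventricular, 40229 in atrial, 38951 in outflow and 32225 in branchiomeric cells.

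The class names were checked against markers of other cells. The defining branchiomeric genes Myf5 and Myod1 had no UMI in ventricular cells. The subtype markers placed the cells and so are no check of the names, and several were shared between subtypes. The ventricular marker Mpped2 had a UMI in 97.2% of outflow cells (527 CPM, against 630 CPM in ventricular cells), the atrial marker Angpt1 in 76.5% of ventricular cells (151 CPM, against 373 CPM in atrial cells) and the outflow marker Bmp4 in 56.9% of atrial cells (125 CPM, against 366 CPM in outflow cells). Outflow cells also held Rspo3, a marker of the atrioventricular canal (411 CPM, in 80.2% of cells), and Rgs5, a smooth muscle marker (165 CPM, in 72.0%). The canal markers Tbx2, Tbx3 and Bmp2 were no higher there than in atrial cells (21.7, 13.1 and 46.1 against 22.8, 27.2 and 107 CPM). They were higher there than in ventricular cells (12.6, 9.72 and 26.5 CPM). A UMI of Tbx2 was found in 49.7% of outflow and 35.0% of atrial cells. For Bmp2 these shares were 59.4% and 43.0%, and for Tbx3 32.0% and 40.1%. Of the other smooth muscle markers in outflow cells, Myh11, Pdgfrb and Itga8 were at 1.95, 3.12 and 5.80 CPM and Notch3 at 20.9 CPM. Cnn1 was at 267 CPM, near the atrial 263 CPM. Whether cells of other kinds took part in the results was not tested. Haemoglobin RNA was present in all heart muscle classes: Hba-x stood at 513 CPM in ventricular, 299 CPM in atrial and 25.6 CPM in outflow cells, where CPM is UMIs per 1000000 UMIs. The share of cells with an Hba-x UMI was 70.1%, 61.9% and 63.2% in the same order. The part of this RNA in the results was not tested. The atrial class also holds cells with sinus venosus markers, since 45.6% had a UMI of Shox2 and 88.2% of Vsnl1. Of the 862 branchiomeric cells, 57.7% had a UMI of Myf5 but 6.38% of Myod1, 8.70% of Myog and 0.464% of Chrna1, a gene of differentiated muscle. Markers of paraxial mesoderm were present in this class too. Tcf15 was at 39.9 CPM (12.1% of cells) and Pax3 at 38.8 CPM (6.26%). Meox1 had a UMI in 27.4%, Meox2 in 29.2%, Foxc2 in 7.89% and Pax1 in 1.16% of the cells. The part of paraxial mesoderm in this class was not tested. Among kept cells, 2890 had a barcode sequence also found in another library, and every gene called between the classes stayed called without them. The splits within a class were not repeated without them.

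In striated muscle, myosin thick filaments pull on actin thin filaments between Z-discs, and titin spans the gap as a spring. Contraction starts when calcium leaves the sarcoplasmic reticulum through the ryanodine receptor and binds troponin C, and it ends when the pump SERCA returns calcium to the store. Many of these proteins exist as paralogues that the ventricle, the atrium and skeletal muscle use in different proportions, and the embryonic heart starts from a common programme before the chambers diverge.

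Of the 38 genes, 33 had a promoter window in the RefSeq table for GRCm38.p6, from 250 bases before the transcript start to 50 after it, with 42 windows among them. The CArG box, the element bound by serum response factor, was searched on both strands as CC, 6 bases of A or T, and GG. It lay in 8 of the 42 windows (19.05%), of 7 genes, against 1.63% of all 32851 windows in the table. The windows of Ldb3 overlap and hold the same box, which is counted in each. The M-CAT element bound by TEAD factors, CATTCC or its reverse GGAATG, lay in 12 windows (28.6%) against 14.7% of all, and a MEF2 element in 5 (11.9%) against 3.19%. Also searched were GATAA on both strands, in 15 windows (35.7%) against 25.4%, the E-box CANNTG, in 37 (88.1%) against 72.3%, and TATAAA on the gene's strand, in 5 (11.9%) against 8.32%. A match describes letters, not binding. The 120 bases before the start are shown for the 6 genes whose CArG box lies within that stretch. CArG and M-CAT matches are in capitals, and none of them overlap.

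Actc1, chr2:114052876-114052995, minus strand: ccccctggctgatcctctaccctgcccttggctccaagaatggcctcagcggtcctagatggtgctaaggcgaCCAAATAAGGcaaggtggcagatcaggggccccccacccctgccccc
Acta1, chr8:123894776-123894895, minus strand: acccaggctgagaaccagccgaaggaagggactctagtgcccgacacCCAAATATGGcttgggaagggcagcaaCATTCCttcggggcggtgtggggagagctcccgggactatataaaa
Myl3, chr9:110763558-110763677, plus strand: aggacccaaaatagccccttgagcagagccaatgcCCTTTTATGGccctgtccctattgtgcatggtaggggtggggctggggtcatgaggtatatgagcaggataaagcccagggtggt
Myl7, chr11:5898783-5898902, minus strand: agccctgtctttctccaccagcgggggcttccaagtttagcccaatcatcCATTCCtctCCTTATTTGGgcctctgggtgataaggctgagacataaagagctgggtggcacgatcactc
Ldb3, chr14:34588682-34588801, minus strand: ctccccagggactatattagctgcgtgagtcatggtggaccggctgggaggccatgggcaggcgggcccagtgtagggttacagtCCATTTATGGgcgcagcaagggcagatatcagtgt
Myom1, chr17:71019437-71019556, plus strand: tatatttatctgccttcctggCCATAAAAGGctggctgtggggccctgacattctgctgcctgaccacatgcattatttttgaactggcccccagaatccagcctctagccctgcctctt

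The CArG box began 47 bases before the start in Actc1, 73 in Acta1, 85 in Myl3, 61 in Myl7, 35 in Ldb3 and 99 in Myom1. From the other start of Ldb3, the same box began 109 bases before. In Myl7 an M-CAT element began 70 bases before the start, next to the CArG box, and in Acta1 one began 46 bases before it. The 7th gene with a CArG box in its window, Nebl, had it further upstream. Atp2a2, Myom2, Sln, Tcap and Xirp1 had no entry in the table.

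In heart muscle cells the 38 genes made up a large part of the RNA. They took 6.46% of all UMIs in ventricular cells (95% exact binomial interval 6.46% to 6.47%, counting error only), 7.32% in atrial cells and 6.96% in outflow cells. The share ranged over the 6 libraries from 6.20% to 6.70% in ventricular, from 6.22% to 7.68% in atrial and from 6.74% to 7.33% in outflow cells, so the atrial range overlaps both others, while the ventricular range lies below the outflow range. Branchiomeric cells gave 0.0912% to the same genes (0.0746% to 0.118% over the libraries), other classes together 0.0840% and erythroid cells 0.0226%. Of the 38 genes, 34 reached 10 CPM in at least one of the classes compared in each heart muscle comparison. The 4 that did not in any heart muscle class were Myom2, an M-band protein, at 0.150 CPM over all cardiomyocytes (22 UMIs), Xirp2, an actin-binding repeat protein, at 0.327 CPM, Casq2, the calcium buffer of the reticulum, at 3.45 CPM, and Sln, a small SERCA inhibitor, at 4.90 CPM.

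**Figure D1:**
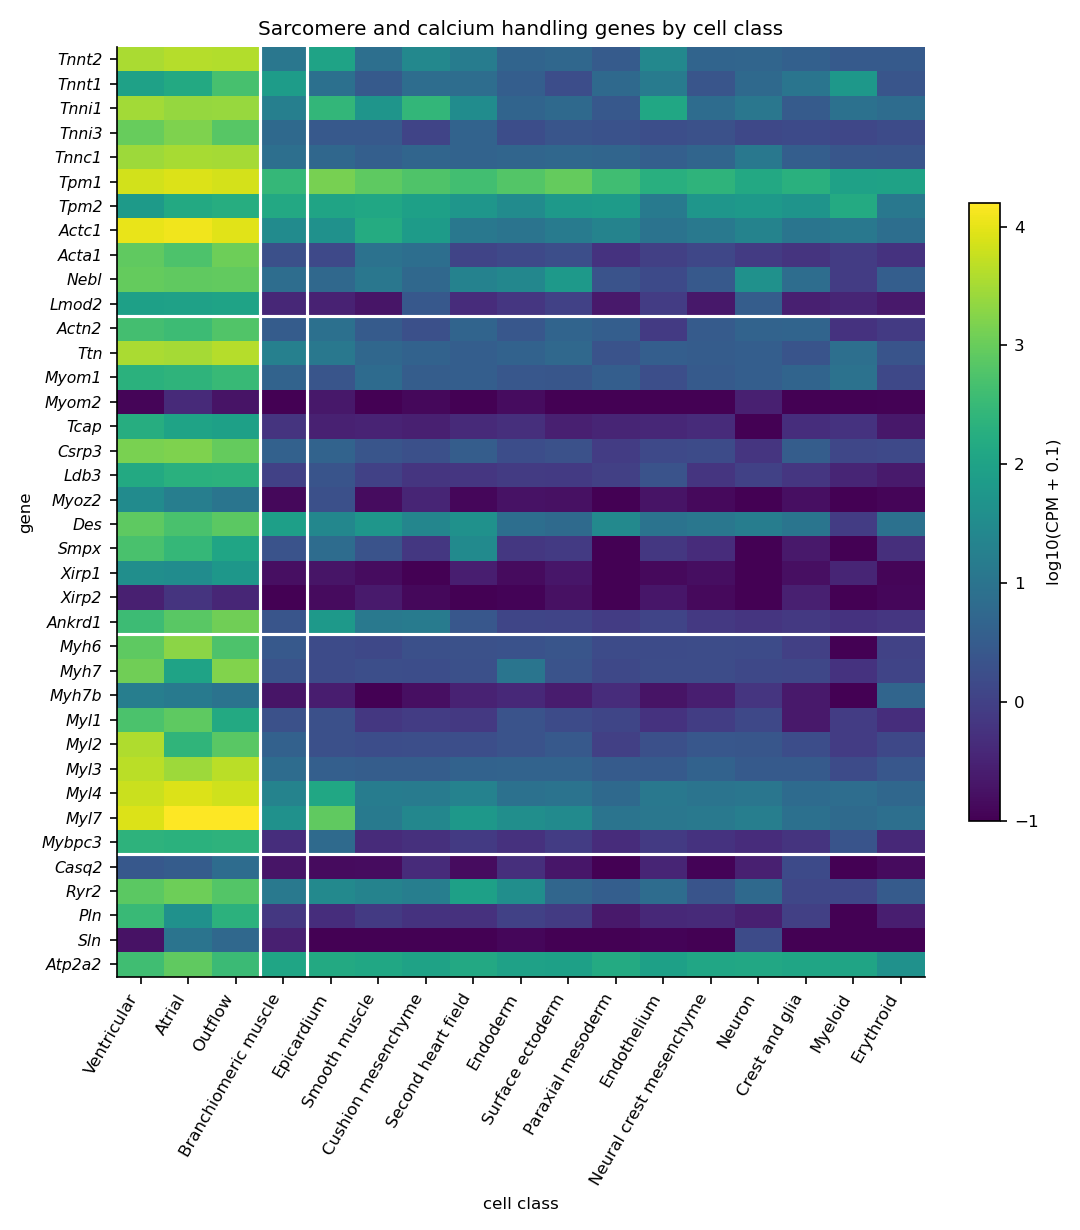
Level of each of the 38 genes (rows, ordered by role: thin filament, titin to anchors, thick filament, calcium handling) in 17 cell classes (columns), as log10 of CPM plus a pseudocount of 0.1. The 3 heart muscle classes on the left are bright over nearly all rows, while Tpm1, Tpm2 and Atp2a2 stay visible in most other classes.

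The share was higher the more heart muscle markers a cell showed, none of which is one of the 38 genes. Its median was 0.0505% in cells with no marker, 0.621% with 8 markers, 1.51% with 9, 3.23% with 10 and 7.44% with all 12. The counts of cells were lowest at 8 and 9 markers (262 and 260 cells), which is where the gate was drawn. Of these cells 2 were in the branchiomeric class. Against the other 520, just outside the gate, the genes were not raised alike in cardiomyocytes. Acta1 was 23.4 times, Myl2 21.1 times and Myl3 15.6 times as high inside the gate, while Tnni1 was 2.66 times, Ryr2 2.05 times and Atp2a2 1.61 times as high. Tpm2 was lower inside the gate, at 115 CPM against 134 CPM.

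A gene is called higher or lower between classes when its CPM differed at least 2-fold, reached 10 CPM in either class and pointed the same way in every library with at least 20 cells of both classes. Between ventricular and atrial cells, 3 of the 34 genes were higher in ventricular cells (Myl2, Myh7 and Pln), where 1.04% of the 8572 genes tested were called higher. Another 4 were lower (Myh6, Atp2a2, Tpm2 and Ankrd1), where 4.55% of all genes were. The median log2 ratio of the 34 genes was -0.08, beside -0.09 over all genes tested. All 6 libraries entered.

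Myl2, the ventricular regulatory light chain of myosin (chr5:122100951-122113472, GRCm38), stood at 4037, 3796, 4304, 3358, 3881 and 3542 CPM in the ventricular cells of libraries 1 to 6. In atrial cells it stood at 222, 245, 318, 234, 329 and 213 CPM. No library of one class reached the other. Over all cells the level was 3861 CPM against 258 CPM, a ratio of 14.98 (95% interval from counting error 14.7 to 15.2). Its counterpart Myl7, the light chain of the atrium and of the early heart, was present at 8429 CPM in ventricular cells and 15344 CPM in atrial cells, a ratio of 0.549 that points the same way in all 6 libraries but falls short of 2-fold.

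Myh7, the slow beta myosin heavy chain, was present in ventricular cells at 1283, 1340, 1372, 1030, 992 and 975 CPM in libraries 1 to 6. In atrial cells the values were 125, 107, 104.9, 70.1, 113 and 85.0 CPM, and the ranges do not overlap. The ratio was 11.4 (11.1 to 11.7). Myh6, the fast alpha heavy chain that lies next to Myh7 on chromosome 14 with 3756 bases between them, ran the other way. It stood at 873, 1027, 859, 728, 664 and 693 CPM in ventricular cells and at 2024, 2428, 2040, 1733, 1759 and 1679 CPM in atrial cells. The atrial level was 2.41 times (2.38 to 2.43) the ventricular level, and each library showed it. Myh7 overlaps Mhrt and other transcripts on the opposite strand, and the strand setting of the counting is not given in the sources used here.

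Calcium handling differed most in the pump and its inhibitors. Atp2a2, which encodes the SERCA2 pump, stood at 381, 455, 432, 383, 373 and 358 CPM in ventricular cells and at 843, 1031, 997, 766, 774 and 829 CPM in atrial cells. The atrial level was 2.20 times the ventricular one (2.16 to 2.23). Pln, phospholamban, the SERCA inhibitor of the ventricle, showed the reverse: 316, 291, 376, 311, 418 and 308 CPM in ventricular against 41.1, 39.3, 49.4, 30.6, 64.4 and 20.6 CPM in atrial cells. Its ratio was 7.98 (7.65 to 8.33). Of the 5 calcium handling genes, only Pln was higher in ventricular than in atrial cells over all cells. Sln, sarcolipin, the atrial counterpart of Pln, was under 10 CPM over all cells of each class: 552 UMIs in atrial cells (9.89 CPM) and 5 UMIs in ventricular cells (0.0779 CPM). Atrial cells were above ventricular cells for Sln in all 6 libraries. Ryr2, the ryanodine receptor, was at 758 CPM in ventricular and 1117 CPM in atrial cells, lower in ventricular cells in every library and under 2-fold.

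Tpm2, beta-tropomyosin, and Ankrd1, a titin-associated repeat protein that responds to stretch, were the other 2 genes lower in ventricular cells. Tpm2 ranged from 65.9 to 73.9 CPM over the ventricular and from 130 to 170 CPM over the atrial libraries. In cells thinned to 5000 UMIs Tpm2 fell under 2-fold (log2 ratio -0.99). Ankrd1 ranged from 297 to 538 CPM and from 594 to 835 CPM, and its ratio of 0.497 sat at the threshold: without library 1, 2 or 3 the difference was under 2-fold, with log2 ratios of -0.96, -0.92 and -0.99. Just inside and just outside the threshold stood Ankrd1 and Myoz2, a Z-disc protein that binds calcineurin, at 32.9 CPM in ventricular and 16.7 CPM in atrial cells (ratio 1.97). Tcap, the titin cap (1.70), Smpx, a costamere protein (1.69), Myl3, the ventricular essential light chain (1.63), and Des, desmin (1.57), were also higher in ventricular cells in every library without reaching 2-fold.

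**Figure D2:**
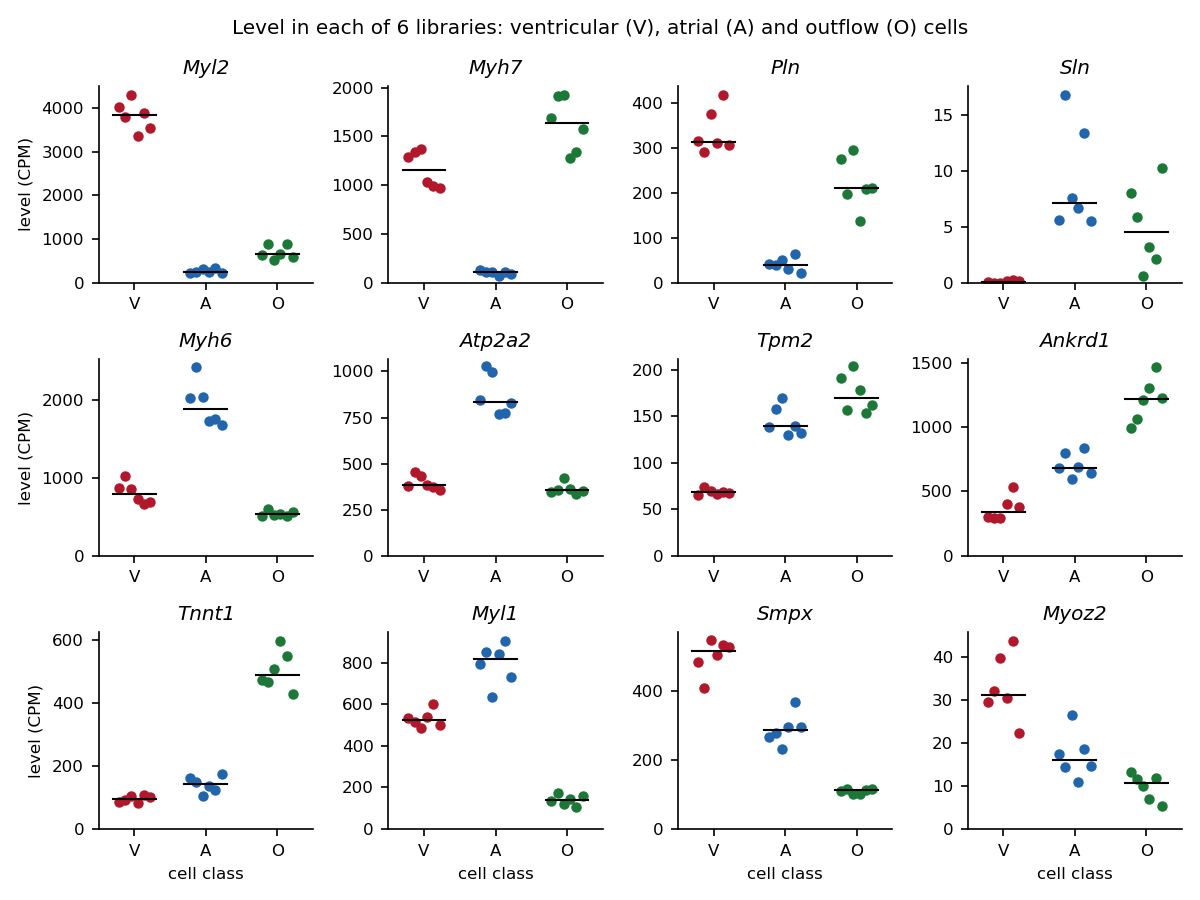
Level (CPM, linear axes from 0) of 12 genes in ventricular (V), atrial (A) and outflow (O) cells, 1 point per library and a bar at the median of the 6 libraries. Myl2 and Myh7 in ventricular cells lie far above their atrial values, Tnnt1 separates outflow cells from both chambers, and Sln is near 0 in ventricular cells.

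Ventricular and atrial cells together, called chamber cells here, were then set against outflow cells, the muscle added last to the arterial pole. Of 34 genes, 5 were higher in chamber cells, Myl1, Smpx, Myl2, Myoz2 and Myh6, where 2.17% of 8749 genes were. Another 3 were lower, Tnnt1, Myh7 and Ankrd1, where 5.06% were. The chamber level pools ventricular and atrial cells, so a call need not hold against each of them. Myh7 in outflow cells was 1.37 times its ventricular level, and Tnnt1 3.41 times and Ankrd1 1.64 times their atrial levels. Myl2 was higher in outflow than in atrial cells. Ankrd1 fell under 2-fold in cells thinned to 5000 UMIs and in clusters made without the 38 genes (log2 ratios -0.96 and -0.97). The median log2 ratio was -0.07, beside -0.06 over all genes tested.

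Tnnt1, the slow skeletal troponin T, had the largest excess in outflow cells. Its outflow values were 472, 465, 507, 598, 551 and 430 CPM in libraries 1 to 6. Ventricular cells had 81.3 to 107 CPM and atrial cells 106 to 175 CPM, so no chamber library came near. The outflow level was 4.19 times (4.09 to 4.30) the chamber level. Tnnt2, cardiac troponin T, hardly separated the classes, with 3808 CPM in chamber and 3969 CPM in outflow cells.

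Myl1, an essential light chain best known from fast skeletal muscle, was 4.63 times (4.47 to 4.80) as high in chamber cells. It ranged from 107 to 172 CPM over the outflow libraries, from 485 to 599 CPM over the ventricular and from 635 to 905 CPM over the atrial ones. Smpx, at 101 to 116 CPM over the outflow libraries, was 3.62 times as high in chamber cells, where it ranged from 410 to 549 CPM in ventricular and from 233 to 371 CPM in atrial libraries. Outflow cells thus had the lowest level of both genes in every library.

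The myosin heavy chains placed outflow cells on the ventricular side of the pair. Myh7 stood at 1693, 1909, 1924, 1282, 1345 and 1571 CPM in outflow cells, 2.39 times the chamber level, and Myh6 at 514, 605, 525, 539, 507 and 564 CPM. The light chains did not follow: Myl2 was at 723 CPM in outflow cells, between the atrial and the ventricular level, and Myl7 was at 15550 CPM, close to the atrial 15344 CPM. Pln, at 218 CPM, also lay between atrial and ventricular cells, and ranged from 138 to 295 CPM over the outflow libraries. Ankrd1 was highest in outflow cells, at 991 to 1469 CPM over the libraries, then in atrial and then in ventricular cells, and the ranges of the 3 classes do not overlap.

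**Figure D3:**
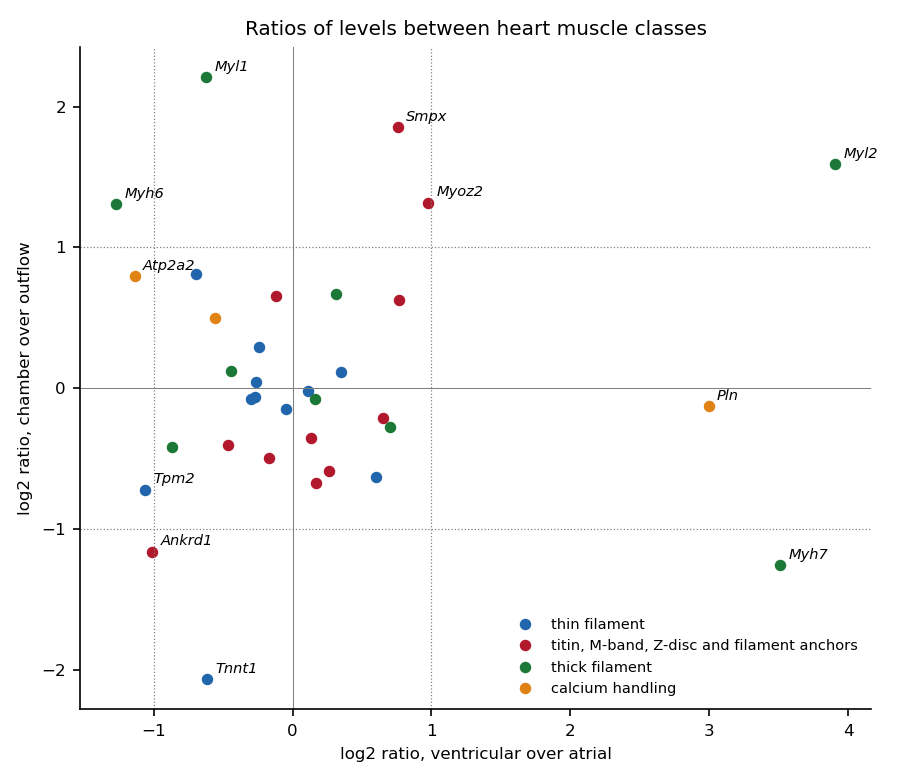
Log2 ratio of the level in ventricular over atrial cells (horizontal) and in chamber over outflow cells (vertical) for the 34 genes that reached 10 CPM, coloured by role. Dotted lines mark 2-fold. Most genes lie inside the dotted square, Myl2, Myh7 and Pln stand out to the right, Myl1 and Smpx at the top and Tnnt1 at the bottom.

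None of the remaining thin filament genes was called in these comparisons. Actc1, cardiac actin, was at 10587, 12489 and 9369 CPM in ventricular, atrial and outflow cells, and Tpm1, alpha-tropomyosin, at 6999, 8390 and 7406 CPM. Tnnc1, the calcium sensor troponin C, was at 2698, 3315 and 3150 CPM. Tnni1, the slow skeletal troponin I of the embryonic heart, was highest in ventricular cells (3014, 2364 and 2500 CPM), and Tnni3, the adult cardiac form, in atrial cells (965, 1564 and 710 CPM). Acta1, skeletal actin, was lowest in atrial cells at 561 CPM, with 851 CPM in ventricular and 1112 CPM in outflow cells. Nebl, nebulette, ranged from 864 to 933 CPM over the 3 classes and Lmod2, a factor for actin filament length, from 92.0 to 104 CPM.

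Of the other thick filament genes, Myl3 was at 4506, 2768 and 4485 CPM in the same order, and Myl4, the atrial and embryonic essential light chain, was at 6212, 8452 and 6663 CPM. Mybpc3, cardiac myosin binding protein C, was at 232, 207 and 232 CPM, and Myh7b, an ancient slow myosin, at 16.8, 13.5 and 9.56 CPM. Ttn, titin, was at 3393, 3086 and 4145 CPM. Of the anchors, Actn2, alpha-actinin of the Z-disc, was highest in outflow cells (450, 375 and 624 CPM), as were Myom1, myomesin of the M-band (210, 236 and 313 CPM), Ldb3, a Z-disc adaptor (141, 195 and 220 CPM), and Xirp1 (37.5, 33.3 and 56.8 CPM). For these 4 anchors and Ttn the outflow level was the highest in all 6 libraries. Csrp3, a muscle LIM protein, was highest in atrial cells (1439, 1561 and 950 CPM), and Tcap (174, 102 and 91.2 CPM) in ventricular cells. Xirp2 (0.187, 0.501 and 0.260 CPM), Casq2 (2.60, 3.15 and 6.84 CPM) and Myom2 (1, 18 and 2 UMIs) were too low to compare by the rule.

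Libraries of one class differed less than most of the called classes did. Over the genes of at least 10 CPM in a class, the highest library was a median of 1.27 times the lowest in ventricular cells. The median was 1.34 times in atrial cells and 1.30 times in outflow cells. Among these genes the widest spread was that of Pln in atrial cells, 3.12 times, from 20.6 CPM in library 6 to 64.4 CPM in library 5. Myoz2 followed, with 2.50 times in outflow and 2.41 times in atrial cells.

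Shares of paralogue pairs were then taken in single cells with at least 10 UMIs of the pair. Myl2 made up a median of 33.7% of Myl2 and Myl7 together in ventricular cells (25.7% to 40.0% for the middle 50% of cells), 0.0884% in atrial cells and 1.74% in outflow cells. In 6.03% of ventricular cells Myl2 exceeded Myl7, so Myl7 was the more abundant of the pair in most ventricular cells. In atrial cells the pooled share of 1.65% lay above the median cell, and the upper 5% of cells had at least 10.3% Myl2. Myh6 made up a median of 36.6% of both heavy chains in ventricular cells, 99.3% in atrial and 19.2% in outflow cells. Both heavy chains were present side by side, each with at least 20% of the pair, in 72.7% of ventricular, 41.7% of outflow and 5.24% of atrial cells. In the upper 5% of ventricular cells Myh6 had at least 96.8% of the pair, a value typical of atrial cells.

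**Figure D4:**
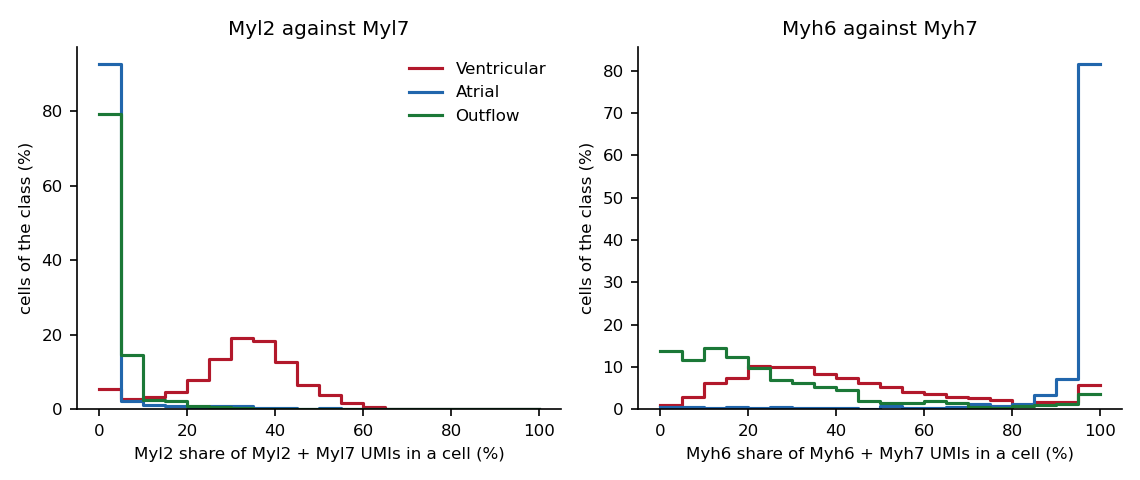
Distribution over single cells of the Myl2 share of Myl2 and Myl7 UMIs (left) and of the Myh6 share of Myh6 and Myh7 UMIs (right), in percent of the cells of each class per 5% bin, for cells with at least 10 UMIs of the pair. Atrial cells pile up at the low end for Myl2 and at the high end for Myh6, while ventricular cells spread around medians of 33.7% and 36.6%.

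Other pairs differed less. Tnni1 made up a median of 74.6% of Tnni1 and Tnni3 in ventricular, 61.0% in atrial and 85.7% in outflow cells. Myl3 made up 41.9%, 21.4% and 38.6% of Myl3 and Myl4 in the same order. Tnnt1 made up 1.64%, 2.29% and 6.58% of both troponin T genes. Actc1 held 93.9%, 99.8% and 95.8% of the 2 actins, so the skeletal actin was the minor form in the median cell of each class.

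Cells of one class were also split by markers that are not among the 38 genes. Ventricular cells with at least 2 of the trabecular markers Nppa, Nppb, Gja5 and Bmp10 (576 cells) were set against those with none (251 cells). Smpx was the 1 gene called higher, at 602 against 215 CPM (ratio 2.79), where 0.239% of 8370 genes were, and none of the 34 was called lower, where 3.52% were. Among the genes that did not reach 2-fold, Acta1 (1.83 times), Pln (1.54), Myl2 (1.43) and Myh7 (1.33) were higher in all 6 libraries. Others were lower in all 6, such as Lmod2 (0.609), Tnni3 (0.711), Myl7 (0.731) and Myh6 (0.739). How many of all genes kept the same direction in all 6 libraries without reaching 2-fold was not counted. Cells with at least 2 markers were deeper, with a median of 63088 against 40777 UMIs. In cells of 25000 to 75000 UMIs the medians still differed, at 56424 against 42612 UMIs, and Smpx kept a ratio of 3.00. There Acta1, Pln, Myl2 and Myh7 stayed higher and Lmod2, Myl7 and Myh6 lower in all 6 libraries, while Tnni3 was higher in 1.

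Atrial cells with at least 3 of the sinus venosus markers Shox2, Hcn4, Tbx18 and Vsnl1 (479 cells) were set against those with 0 or 1 (429 cells). Sln was at 20.2 against 2.02 CPM (ratio 10.0, interval 7.22 to 14.2). It reached 10 CPM only in the group where it was high, and was the 1 gene of 35 called higher (2.86%), near the 2.48% of all 8745 genes. Lower were Myl2 (61.7 against 555 CPM), Pln (22.1 against 73.7 CPM), Acta1 (236 against 731 CPM) and Myl3 (1651 against 3675 CPM), where 1.44% were. The Myl2 level of the cells with 0 or 1 marker is a pooled one: over all atrial cells, 1138 of 1229 had under 5% Myl2 in its pair with Myl7. Each of these 5 genes pointed the same way in 6 of 6 libraries. Myl7 was at 13195 CPM in the cells with 3 or more markers and 16334 CPM in the others. The median log2 ratio of the 35 genes was -0.29, beside 0.06 over all genes tested.

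Branchiomeric muscle cells held low levels of most of these genes. Of the 34 genes, 33 were higher in cardiomyocytes, where 11.0% of 9411 genes were, and none was lower, where 15.3% were. A gene that reached 10 CPM through cardiomyocytes alone had to be higher there, so the count is a description. The median log2 ratio was 8.16, beside -0.31 over all genes tested. Most genes stood near a common low fraction of their cardiomyocyte level: the median was 0.349%, and 22 of 34 genes lay within 2-fold of it. Tnnt2, for example, was at 11.7 CPM against 3794 CPM.

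A few genes stood above that fraction. Tpm2 was the exception to the count, at 139 CPM in branchiomeric cells and 115 CPM in cardiomyocytes, and was higher in branchiomeric cells in all 6 libraries (117 to 166 CPM against 107 to 125 CPM). Tnnt1 stood at 124, 53.0, 85.8, 48.2, 53.7 and 64.6 CPM in the branchiomeric cells of libraries 1 to 6, which was 41.7% of the cardiomyocyte level over all cells, and library 1 was the highest. With 1 more marker required of both classes its difference fell under 2-fold (log2 ratio 0.77). In cells thinned to 5000 UMIs, 25.1% of branchiomeric cells had a Tnnt1 UMI, against 1.74% of erythroid cells and 1.88% of neurons (60.8%, 8.17% and 14.4% before thinning). Des stood at 12.5% of the cardiomyocyte level, with 85.4 CPM and a range of 76.2 to 98.7 CPM over the libraries, and Atp2a2 at 19.9%. Tpm1 (3.78%), Myom1 (1.85%) and Ryr2 (1.43%) were the others at 4 times the class median or more. Of these genes, all but Ryr2 also reached 4 times the class median in paraxial mesoderm. Tnnt1 did so in every other class but surface ectoderm. Tnnt1 made up 86.4% of both troponin T genes in branchiomeric cells and 2.66% in ventricular cells.

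The 107 branchiomeric cells with a UMI of Myod1 or Myog, the factors of committed muscle, were compared with the 755 cells without. Tpm1 was at 421 against 262 CPM, higher in 4 of the 5 libraries with at least 10 cells of both kinds, and Actc1 at 43.3 against 30.7 CPM, also in 4 of 5. Ryr2 was at 4.40 against 13.8 CPM, lower in all 5. Ttn was at 39.3 against 15.1 CPM but higher in 2 of 5 libraries. Tnnt1 was not higher in these cells, at 56.9 against 77.2 CPM.

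Against the 13 other classes together, all 34 genes were higher in cardiomyocytes, where 10.2% of 9268 genes were, and none was lower, where 10.9% were. The ratios ran from 2.36 for Tpm2 and 5.59 for Atp2a2 to 1010 for Myl2 and 1059 for Myl3. The median log2 ratio was 7.81, beside -0.19 over all genes tested. The same limit holds for this count. The median fraction of the cardiomyocyte level was 0.0920% in erythroid cells, 0.158% in neurons and 0.157% in neural crest mesenchyme. How closely the genes kept to the median of a class differed. Of 34 genes, 26 lay within 2-fold of it in neural crest mesenchyme, 23 in erythroid cells, 22 in surface ectoderm and 19 in endothelium. In the other 9 classes the count ran from 16 in paraxial mesoderm and in crest and glia down to 14 in neurons, 12 in smooth muscle, 11 in cushion mesenchyme and 7 in epicardium.

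Single genes stood well above the median fraction in named classes. Tpm1, Tpm2 and Atp2a2 reached at least 4 times the class median in all 13, and tropomyosins and SERCA2 are also made outside muscle. Myl7 in epicardium was at 865 CPM, 7.13% of the cardiomyocyte level, with a UMI in 92.1% of the cells. Epicardium also held Tnni1 (276 CPM) and Ankrd1 (63.3 CPM) at 10.0 and 9.67 times its median fraction, and it had the highest median fraction of all classes, 1.04%. Tnni1 reached 280 CPM in cushion mesenchyme. Ryr2 (89.8 CPM, 24.9 to 132 CPM over the libraries) and Smpx (30.6 CPM, 0 to 51.4 CPM) stood out in the second heart field class, where the libraries differed widely. Nebl stood out in surface ectoderm (61.7 CPM, 51.6 to 81.4 CPM) and neurons (42.1 CPM). Actc1 in smooth muscle was at 161 CPM but ranged from 40.6 to 339 CPM over the libraries.

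Myh7b was the 1 gene of the thick filament to stand out in erythroid cells. It had 562 UMIs there, or 4.82 CPM (interval 4.43 to 5.24), which was 34.0% of its cardiomyocyte level of 14.2 CPM, with 3.38 to 6.33 CPM over the libraries. A UMI was found in 21.5% of erythroid cells. The gene overlaps Trpc4ap on the opposite strand and Mir499 on its own. Xirp1, which overlaps the myeloid gene Cx3cr1 on the same strand, had 1 UMI in 63 myeloid cells. Tnnt1 in those 63 cells was at 59.0 CPM, with a UMI in 85.7% of them, and no library had 20 such cells.

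**Figure D5:**
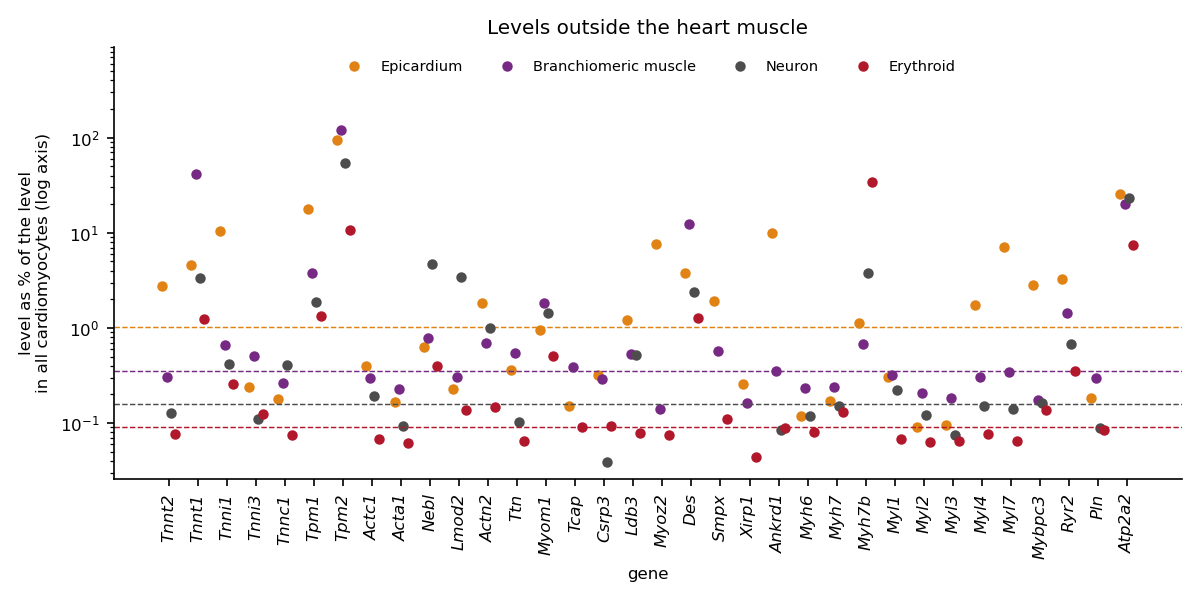
Level of the 34 genes in epicardium, branchiomeric muscle, neurons and erythroid cells as a percentage of the level in all cardiomyocytes (log axis, dashed lines at the median of each class, points at 0 not drawn). Of 34 genes, 22 in branchiomeric and 23 in erythroid cells lie within 2-fold of the dashed line, but 14 in neurons and 7 in epicardium. Tpm2, Atp2a2, Tpm1 and Tnnt1 lie at 4 times the median or more in each of the 4 classes, and Myh7b in neurons and erythroid cells.

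The other genes of the pathway were followed through a list of 40 further sarcomere and calcium handling genes. In ventricular against atrial cells, 0 of 31 tested were higher and 5 lower, where 1.04% and 4.55% of all genes were. The largest ratios were those of Atp2a1, the SERCA1 pump of fast muscle (0.732 against 17.2 CPM), Tnnt3, fast skeletal troponin T (9.86 against 32.9 CPM), and Mybphl, a binding protein of myosin known from the atrium (23.1 against 69.4 CPM). In chamber against outflow cells, 4 of 32 were higher and 5 lower, where 2.17% and 5.06% of all genes were. Mybpc1, slow skeletal myosin binding protein C, was at 1.55 CPM in chamber and 132 CPM in outflow cells, 85.3 times as high in the latter. Tnni2, fast troponin I, was 4.67 times as high in chamber cells, and Nrap, an anchor of terminal actin filaments, 3.74 times as high in outflow cells.

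In cardiomyocytes against branchiomeric cells, 25 of 33 further genes were higher and 3 lower, where 11.0% and 15.3% of all genes were. Trdn, triadin, which holds the release channel in place, was 410 times and Unc45b, a myosin chaperone, 213 times as high in cardiomyocytes. The 3 lower genes were Ryr1, the skeletal release channel, at 0.946 CPM in cardiomyocytes and 10.55 CPM in branchiomeric cells, Cavin4 (3.38 against 13.1 CPM) and Itpr1, a calcium channel of the reticulum (76.5 against 164 CPM). Against the other classes, 26 of 31 were higher and 1 lower, where 10.2% and 10.9% of all genes were. Trdn was 581 times and Lmod3, a leiomodin of the thin filament, 272 times as high in cardiomyocytes. The lower gene was Tpm3 (154 against 330 CPM), which also encodes a tropomyosin of non-muscle cells. The names of Ryr1, Cavin4, Itpr1 and Tpm3 here were chosen as the few that ran against the rest.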

How the data were processed

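Droplet 3′ RNA libraries (10x Genomics kit, version 3) were made from dissected tissue, per the labels' protocols. The labels' descriptions name a chromatin assay, whereas the kit and the titles speak of RNA, and RNA was assumed. The authors deposited raw UMI counts, whole numbers per gene and cell, in 1 matrix. CASAVA 1.8, Cell Ranger 5.0.0, Seurat 4 and build mm10 appear in the submitters' processing notes, with no roles given there. The sources used here give no counting options.

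Counts were summed per class and library and scaled to CPM out of all UMIs. Intervals are 95% exact Poisson (CPM), exact binomial (shares) and exact conditional binomial (ratios), and cover counting error only. With no pairing of libraries and samples, the planned edgeR test of the treatments was not run. The genes called by fold were counted over all genes in the same way. The code of the call rule was run on simulated counts with known folds, which does not test the results here. Doublets were scored by nearest neighbours among simulated doublets, after the Scrublet method, in Python 3.11.15 with scikit-learn 1.9.0. The expected number with the highest scores was left out as an alternative, not in the main values. Cells passing 2 gates (12) and cells outside the branchiomeric class with 5 to 9 heart muscle markers (2144) were set aside. Branchiomeric cells could hold up to 9 of these markers, while cells of the 13 other classes held fewer than 5.

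The 38 genes, the marker lists, the 40 further genes and the pairs were chosen with earlier results of these data known. All 38 genes are described, and of the further list the counts and the 3 with the largest ratios in each comparison. The result of 1 of these genes is not reported here. The numbers of markers required, and the clustering resolution of 2 (raised from 1), were set after marker counts and clusters had been seen. Gene positions come from GENCODE M21. Alternatives covered filters, gates, clusters made without the 38 genes, thinning, scaling, the fold and each library left out.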

Additional observations from a re-analysis of the deposited data

How the results depend on the processing

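No value reversed its direction under any alternative run. No paired analysis was possible because no file used here ties the labels' replicate numbers to libraries, so the treatments have no pairs. The classes were set side by side within each library, without a test. The genes higher in ventricular than atrial cells numbered 5 with a gate that itself used Tnnt2, Myl2 and Myl7 (1.21% of all genes), 4 without barcodes found in more than 1 library (1.25%) or in cells thinned to 5000 UMIs (1.38%), and 3 to 4 when each library was left out (1.03% to 1.14%). The genes lower in ventricular cells numbered 2 in cells thinned to 5000 UMIs (4.58% of all genes), 0 at a fold of 4 (1.31%), and 3 to 5 when each library was left out (4.31% to 4.95%). In thinned cells Tpm2 and Ankrd1 lost the call (log2 ratio -0.96 for Ankrd1), and Ankrd1 also lost it with the gate that used Tnnt2, Myl2 and Myl7 (-0.89). At a fold of 4, 1 gene was higher (0.571% of all genes) and 1 lower (1.55%) in chamber than in outflow cells. The cause was not tested. The clusters shared 84.8% of ventricular, 91.8% of atrial, 82.8% of outflow and 68.4% of branchiomeric cells with the gates.

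The share of UMIs in the 38 genes moved beyond its counting interval under most settings. With 1 more marker it was 6.43% in ventricular, 7.75% in atrial, 7.49% in outflow and 0.102% in branchiomeric cells. With doublet-scored cells left out (1746 cells) it was 6.66%, 7.90%, 7.39% and 0.0882%, and in thinned cells 6.62%, 7.29%, 6.73% and 0.0951%. The median of the libraries was 6.44%, 7.45%, 6.87% and 0.0832%. With the gate using Tnnt2, Myl2 and Myl7 the 3 heart muscle classes gave 6.59%, 6.85% and 7.44%, and without shared barcodes 6.51%, 7.31% and 6.997%. The gate using Tnnt2, Myl2 and Myl7 thus put the outflow share above the atrial share, the reverse of their order in the main values. Clusters gave 6.31% in ventricular, 6.84% in outflow and 0.0793% in branchiomeric cells. Leaving out each library gave 6.42% to 6.51%, 7.23% to 7.44%, 6.84% to 7.01% and 0.0847% to 0.0943%. The restriction of the within-class comparisons to cells of 25000 to 75000 UMIs was chosen after seeing the data and changed none of their 6 calls. Genes under 10 CPM, such as Casq2 and Myom2, were too thinly counted to be called.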

Other observations

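The libraries have no group, and their values are given here without one. The genes in this paragraph were chosen after their values were seen, and no test was made. In ventricular cells, Myh7 stood at 1283, 1340, 1372, 1030, 992 and 975 CPM in libraries 1 to 6, which leaves a gap between 1030 and 1283 CPM with 3 libraries on either side. Myh6 in atrial cells stood at 2024, 2428, 2040, 1733, 1759 and 1679 CPM, with a gap between 1759 and 2024 CPM. Myl7 in ventricular cells stood at 8023, 8124, 7572, 9161, 9579 and 8616 CPM, and Ankrd1 at 303, 297, 298, 402, 538 and 379 CPM. Not every gene split the libraries so: Tnni1 in ventricular cells stood at 3105, 2874, 3087, 3019, 2970 and 2980 CPM. The libraries also differ in how many barcodes were kept (6441, 6000, 4903, 5678, 7136 and 5804) and in kept cells whose barcode sequence occurs in another library (174, 399, 75, 794, 897 and 551). Neither these values nor their order say which libraries belong together.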
